A study of Mus musculus with 31 samples.

Results

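Ndufs5, Rpl11, Eno1 and Ube2j2 are genes of mouse chromosome 4, and each has a near-identical copy on another chromosome, named BC002163, Gm10036, Eno1b and Gm5801. These 4 pairs hold 8 of the 39017 genes in the count files. The members were chosen by their measured difference between MuRF1 -/- and wild type muscle in earlier results of the same data. The genotype values of the 8 members, of their sums and of their shares are therefore given as a description, without a test. The data are counts of polyA RNA from gastrocnemius, a hindlimb muscle, of mice aged 30 weeks. The MuRF1 -/- mice (knockout below) lack MuRF1, a muscle ubiquitin ligase encoded by Trim63 on chromosome 4. Mice stayed on chow or ate a 45% fat, lard-based diet (HFD, "high fat" below) from 8 weeks of age. The groups were knockout males on chow (4 libraries) and high fat (3), knockout females on chow (4) and high fat (3), and the same 4 combinations of sex and diet in wild types, with 4 libraries each. That gives 14 knockout and 16 wild type libraries. A further library, whose described animal is in no title, was put in no group. The labels do not give the strain of the mice, the deleted part of Trim63, or whether wild type mice were littermates.

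The genes lie on both sides of Trim63 (ENSMUSG00000028834), which occupies chr4:134315120-134329629 in mm10. Ndufs5 (ENSMUSG00000028648) lies at chr4:123712710-123718202 on the minus strand, 10.6 Mb from the start of Trim63. Rpl11 (ENSMUSG00000059291), at chr4:136028265-136053428 on the minus strand, is the nearest at 1.71 Mb. Eno1 (ENSMUSG00000063524) lies at chr4:150236721-150248879 on the plus strand, 15.9 Mb away, and Ube2j2 (ENSMUSG00000023286) at chr4:155943831-155959604 on the plus strand, 21.6 Mb away. BC002163 (ENSMUSG00000081824) is an annotated processed pseudogene at chr16:42955631-42955949, inside an intron of Zbtb20 and on its strand. Gm10036 (ENSMUSG00000058064) is a processed pseudogene at chr18:15832794-15833327, and Gm5801 (ENSMUSG00000058581) one at chr14:56010536-56011315 on the minus strand. Eno1b (ENSMUSG00000059040) is annotated as protein coding, at chr18:48045335-48048412, and overlaps AC150274.2 on the same strand. Counts in the overlaps of BC002163 and Eno1b with other genes are uncertain for that reason.

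A processed pseudogene forms when an mRNA is copied back into DNA and inserted elsewhere in the genome. It carries the joined exons of its parent gene without the introns, so a sequencing read from the mRNA can match parent and copy equally well wherever no base has changed. Such copies are common for genes with abundant mRNA, ribosomal protein genes among them. Ndufs5 encodes a small subunit of complex I, the NADH dehydrogenase of the mitochondrial respiratory chain. Rpl11 encodes a protein of the large ribosomal subunit, and the free protein binds Mdm2, the ligase that degrades p53. Eno1 encodes alpha-enolase, a glycolytic enzyme, while mature muscle mainly uses beta-enolase, encoded by Eno3. Ube2j2 encodes a ubiquitin-conjugating enzyme anchored in the endoplasmic reticulum, where it takes part in the removal of misfolded proteins.

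Of the 4 pairs, Ndufs5 and BC002163 have the widest genotype difference in copy share, so the start of the stretch they share is printed. They align over 319 bases of the 321-base coding sequence at 99.4% identity. The first 300 bases come from exons joined within chr4:123712843-123716079 (minus strand) and from chr16:42955631-42955930 (plus strand). Capitals mark the bases that differ, T81C and A105G, with the Ndufs5 base first and positions counted from the A of the start codon.
Ndufs5: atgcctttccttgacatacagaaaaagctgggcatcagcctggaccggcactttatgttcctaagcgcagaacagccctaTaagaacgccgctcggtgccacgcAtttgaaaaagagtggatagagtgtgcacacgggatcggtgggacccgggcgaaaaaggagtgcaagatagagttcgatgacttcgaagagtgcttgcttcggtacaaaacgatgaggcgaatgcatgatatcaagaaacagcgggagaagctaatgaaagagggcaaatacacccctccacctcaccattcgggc
BC002163: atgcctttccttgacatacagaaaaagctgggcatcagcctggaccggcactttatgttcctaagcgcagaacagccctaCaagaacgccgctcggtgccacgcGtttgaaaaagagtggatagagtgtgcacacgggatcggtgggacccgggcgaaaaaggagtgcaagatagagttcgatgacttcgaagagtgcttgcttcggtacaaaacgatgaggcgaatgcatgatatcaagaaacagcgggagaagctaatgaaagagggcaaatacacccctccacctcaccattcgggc
The 214 aligned bases after the second of these positions are the same in gene and copy. Of all stretches of 150 bases (the read length in the labels) in this alignment, 38.2% hold no difference.

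Rpl11 and Gm10036 share 534 bases at 99.3% identity and differ at coding positions 187, 225, 344 and 510. Parts of Rpl11 around the first pair of these are printed to show where gene and copy can be told apart, with the differing base in capitals (chr4:136051676-136051706 and chr4:136051638-136051668, minus strand).
Rpl11: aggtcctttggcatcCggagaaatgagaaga
Rpl11: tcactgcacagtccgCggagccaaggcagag
In this alignment 13.8% of the 150-base stretches hold no difference.

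Ube2j2 and Gm5801 share 780 bases at 99.2% identity, with differences G211A, A309G, G426A, C625G, C714T and C771T (Ube2j2 base first, counted from its start codon). The sites of G426A and C625G are printed from both, the gene at chr4:155955521-155955551 and chr4:155957159-155957189 and the copy at chr14:56010911-56010941 and chr14:56010712-56010742, with the differing base in capitals.
Ube2j2: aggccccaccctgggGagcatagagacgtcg
Gm5801: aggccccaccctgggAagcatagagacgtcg
Ube2j2: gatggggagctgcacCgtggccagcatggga
Gm5801: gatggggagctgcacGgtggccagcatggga
Here 11.7% of the 150-base stretches hold no difference.

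Eno1 and Eno1b share 1736 bases at 99.5% identity with 9 differences, of which 8 are in the coding sequence. The longest stretch without a difference is 835 bases, and 57.4% of the 150-base stretches hold none. Of the 4 pairs, this one has the largest part that a single read cannot assign by its sequence. How reads that match several places were counted is not given in the sources used here.

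**Figure D1:**
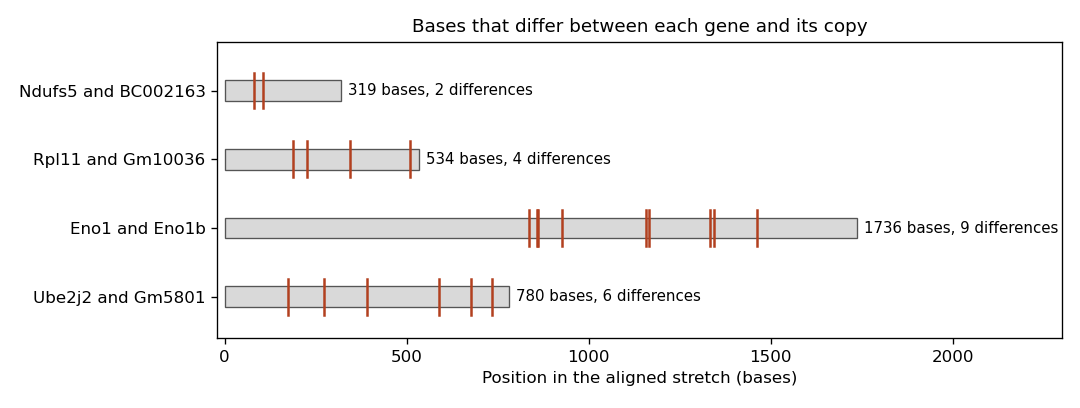
Bars show the stretch shared by each gene and its copy, in bases, and red marks the bases that differ. The Eno1 and Eno1b bar is the longest with 1736 bases and has its 9 differences in the second part, while the Ndufs5 and BC002163 bar has 319 bases and 2 differences.

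Total counts per library ran from 9342028 to 14919379, and all 8 members passed the filter on low counts. The filter asked for a count of about 10 in a library of median size (0.791 CPM, the count scaled to a library total of 1000000). Gm5801 was lowest, with counts of 4 to 59, and reached that level in 14 of 14 knockout and 11 of 16 wild type libraries. Eno1b reached it in 14 and 15, and the other 6 members in all 30. Markers of skeletal muscle were high in every library (Acta1 at 25668.1 to 45590.8 CPM and Myh4 at 44947.5 to 74940.9 CPM). The summed level of 11 markers of other cell types was 74.2 to 709.6 CPM (median 267.9) in knockouts and 156.6 to 876.7 CPM (median 375.2) in wild types. The skin keratin genes had 0 to 13.5 CPM (Krt5, median 0) and 0.805 to 47.4 CPM (Krt10, median 1.81). Of the 11 markers, edgeR called 2 lower in knockouts at an adjusted p under 0.05 (Col1a1 and Csf1r), where 2.83% of all genes were, and 6 had an unadjusted p under 0.05. DESeq2 called 3 lower. Their part in the genotype differences below was not tested.

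Trim63 itself lay between 0.469 and 6.24 CPM in the 14 knockout libraries and between 108.5 and 253.6 CPM in the 16 wild type libraries, so the groups do not overlap. The wild type libraries fall into a set of 13 at 183.3 to 253.6 CPM and a set of 3 at 108.5 (male chow 3), 130.1 (female chow 1) and 119.2 CPM (female high fat 4). The library in no group, titled as a male knockout on high fat, held 107.1 CPM, which goes against that title. In 19 records the animal number of the title differs from that of the description, and 4 of the grouped libraries would be in another group by title. Results that rest on the 3 wild type libraries of intermediate Trim63 are given with and without them.

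Of the 4 pairs, that of Ndufs5 had the largest difference in copy share. Most counts of the pair fell on the pseudogene in 11 of 14 knockout libraries and on Ndufs5 in the other 3 and in all 16 wild type libraries. Ndufs5 had 32.0 to 63.4 CPM (median 39.7) in knockouts and 60.8 to 108.7 CPM (median 89.3) in wild types. Only 1 wild type library, male high fat 2, lay within the knockout range. BC002163 had 48.0 to 133.6 CPM (median 102.2) in knockouts and 2.17 to 70.6 CPM (median 3.42) in wild types. Here 2 wild type libraries reached the knockout range, male chow 4 at 52.0 and female high fat 4 at 70.6 CPM. By edgeR's fit, averaged over sex and diet with equal weight, Ndufs5 differed by a log2 fold change of -0.98 ± 0.09 (SE) and BC002163 by 3.19 ± 0.52. The BC002163 value was 3.82 without male wild type chow 4 and also without female wild type high fat 4, and 3.80 with the replicate number as a block.

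The share of BC002163 in the counts of its pair does not depend on library size. In males on chow it was 73.6%, 72.8%, 72.9% and 73.1% in knockouts and 3.68%, 2.54%, 2.57% and 38.6% in wild types. In males on high fat it was 74.4%, 73.3% and 74.7% in knockouts and 3.38%, 42.5%, 3.48% and 6.66% in wild types. The knockout males lay between 72.8% and 74.7%, and 1 wild type library stood far above the others on each diet. In females on chow the share was 44.6%, 71.3%, 72.8% and 44.0% in knockouts and 3.27%, 3.08%, 3.50% and 2.79% in wild types. In females on high fat it was 49.6%, 68.1% and 74.3% in knockouts and 3.77%, 2.46%, 4.94% and 44.2% in wild types. The female knockouts were split, with 3 libraries at 44.0% to 49.6% and the others at 68.1% to 74.3%. Over the strata the share averaged 67.4% in knockouts and 10.7% in wild types. The 95% Wilson intervals of a single library were 1.68 to 6.15 percentage points wide, for counting error only.

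The sum of the pair was also higher in knockouts. Ndufs5 and BC002163 together had 107.5 to 196.1 CPM (median 139.9) in knockouts and 85.8 to 159.8 CPM (median 99.4) in wild types, and these ranges overlap. The log2 fold change of the sum was 0.49 ± 0.09. Averaged over strata, Ndufs5 had 44.5 CPM in knockouts and 89.9 CPM in wild types, a difference of -45.4 CPM, and BC002163 had 95.9 CPM in knockouts and 13.2 CPM in wild types, a difference of 82.7 CPM. The gain of the copy was thus larger than the loss of the gene. Per length of annotated exons, BC002163 had 298.9 CPM per kilobase in knockouts and 41.5 in wild types, and Ndufs5 51.8 in knockouts and 104.5 in wild types. This length joins the exons of all transcripts of a gene (860 bases for Ndufs5, whose aligned transcript has 525). Values per kilobase therefore compare genotypes, not a gene with its copy.

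Rpl11 lies nearest to Trim63, and its copy was higher in knockouts. Gm10036 had 16.3 to 34.7 CPM (median 17.9) in knockouts and 1.30 to 14.9 CPM (median 2.21) in wild types. Rpl11 had 99.7 to 171.9 CPM (median 109.8) in knockouts and 109.6 to 159.3 CPM (median 126.5) in wild types, with wide overlap. The log2 fold changes were 2.41 ± 0.33 for Gm10036 and -0.16 ± 0.08 for Rpl11. Without the 3 wild type libraries of intermediate Trim63 the Gm10036 value was 3.33.

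The share of Gm10036 was close to constant among knockouts. In males it was 13.7%, 13.6%, 16.1% and 14.8% in knockouts on chow and 1.34%, 1.31%, 8.03% and 1.02% in wild types on chow. On high fat it was 14.8%, 14.8% and 13.8% in knockout males and 1.89%, 2.29%, 1.39% and 1.37% in wild type males. Only male wild type chow 3, a library of intermediate Trim63, stood between the genotypes. In females on chow the share was 15.5%, 14.1%, 13.2% and 13.1% in knockouts and 9.37%, 1.42%, 1.34% and 0.890% in wild types. In females on high fat it was 14.2%, 16.8% and 14.1% in knockouts and 2.01%, 1.72%, 2.59% and 8.60% in wild types. The libraries between the genotypes were again those of intermediate Trim63.

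The sum of Rpl11 and Gm10036 was 117.1 to 206.5 CPM (median 129.6) in knockouts and 112.2 to 173.9 CPM (median 132.0) in wild types. Its log2 fold change was 0.02 ± 0.08, against 2.41 for the copy alone. Averaged over strata, Rpl11 had 113.7 CPM in knockouts and 131.1 CPM in wild types, a difference of -17.4 CPM. Gm10036 had 19.5 CPM in knockouts and 4.05 CPM in wild types, a difference of 15.4 CPM. Loss and gain were of similar size in this average but not in each stratum. The Rpl11 log2 fold change was 0.02 ± 0.16 in males on chow and -0.30 ± 0.17 in males on high fat. In females it was -0.30 ± 0.16 on chow and -0.05 ± 0.17 on high fat. Per kilobase of exon, Gm10036 had 36.3 CPM in knockouts and 7.58 in wild types, and Rpl11 42.2 in knockouts and 48.6 in wild types. Rpl11 was divided by 2697 bases, while its aligned transcript has 833, so its level cannot be set against that of Gm10036 (534 bases). Of the 4 other transcripts that are near-identical to Rpl11, 2 are in the count files, and only Gm10288 passed the filter, with a log2 fold change of 0.19 ± 0.19.

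Eno1 was lower and Eno1b higher in knockouts. Eno1 had 38.5 to 63.4 CPM (median 54.5) in knockouts and 51.0 to 96.6 CPM (median 77.7) in wild types, with 2 wild type libraries inside the knockout range. Eno1b had 8.25 to 23.8 CPM (median 16.1) in knockouts and 0.617 to 12.2 CPM (median 2.03) in wild types, with 5 wild type libraries inside it. The log2 fold changes were -0.48 ± 0.08 for Eno1 and 2.28 ± 0.29 for Eno1b. The Eno1b value was 2.87 without the 3 libraries of intermediate Trim63.

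The Eno1b share spread over more values than that of Gm10036. In males on chow it was 12.6%, 24.4%, 14.9% and 22.9% in knockouts and 0.783%, 1.25%, 11.6% and 3.34% in wild types. In males on high fat it was 24.4%, 26.8% and 25.5% in knockouts and 2.66%, 1.10%, 1.49% and 1.32% in wild types. Knockout males 1 and 3 on chow lay near wild type male chow 3 in this share and apart from the other knockout males. In females on chow it was 24.3%, 16.1%, 20.6% and 25.7% in knockouts and 15.2%, 2.03%, 2.31% and 1.40% in wild types. In females on high fat it was 25.0%, 27.4% and 28.4% in knockouts and 3.49%, 12.8%, 11.3% and 12.7% in wild types. Among wild type females on high fat, 3 of the 4 libraries lay between 11.3% and 12.8%.

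The sum of Eno1 and Eno1b was 51.8 to 85.4 CPM (median 67.0) in knockouts and 60.1 to 104.6 CPM (median 79.1) in wild types, a log2 fold change of -0.17 ± 0.06. Averaged over strata, Eno1 had 53.6 CPM in knockouts and 77.4 CPM in wild types (difference -23.7 CPM), and Eno1b 16.3 CPM in knockouts and 4.27 CPM in wild types (difference 12.0 CPM). Per kilobase of exon, Eno1b had 8.45 CPM in knockouts and 2.28 in wild types, and Eno1 9.97 in knockouts and 14.4 in wild types. Here too gene and copy cannot be compared, since Eno1 was divided by 5379 bases and its aligned transcript has 2027. A further near-identical gene, Gm4735 on chromosome 2, was also higher: it averaged 3.27 CPM in knockouts and 1.60 CPM in wild types (log2 fold change 1.17 ± 0.14). With Gm4735 added, the sum averaged 73.2 CPM in knockouts and 83.3 CPM in wild types. The ranges of the other enolase genes overlapped between genotypes. Eno3, the muscle form, averaged 6543.7 CPM in knockouts and 6977.6 CPM in wild types (-0.04 ± 0.06), and Eno2, the neuronal form, 1.15 CPM in knockouts and 1.23 CPM in wild types (-0.09 ± 0.22).

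Ube2j2, the farthest from Trim63, had nearly the same range in both genotypes, while its copy was higher in knockouts. Ube2j2 had 33.8 to 47.5 CPM (median 40.5) in knockouts and 33.8 to 46.6 CPM (median 39.0) in wild types, a log2 fold change of 0.09 ± 0.06. Gm5801 had 0.878 to 5.14 CPM (median 3.17) in knockouts and 0.428 to 3.47 CPM (median 0.944) in wild types, a log2 fold change of 1.45 ± 0.20. A count of 3 corresponds to 0.201 to 0.321 CPM, so the lowest Gm5801 values rest on few reads. The sum was 36.9 to 52.6 CPM (median 42.8) in knockouts and 34.5 to 48.6 CPM (median 40.0) in wild types (0.15 ± 0.06). Per kilobase of exon, Gm5801 had 4.00 CPM in knockouts and 1.67 in wild types, and Ube2j2 9.09 in knockouts and 8.89 in wild types. For Ube2j2 the length was 4409 bases, against 3483 in its aligned transcript.

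The Gm5801 share overlapped between genotypes in 12 of 14 knockout and 10 of 16 wild type libraries, and each count rests on 1 library. Without male knockout chow 1 (2.08%) the lowest knockout was at 5.36%, and 1 wild type library overlapped. Without female wild type high fat 2 (8.61%) the highest wild type was at 4.85%, and 1 knockout library overlapped. In males it was 2.08%, 8.00%, 6.28% and 8.33% in knockouts on chow, against 2.71%, 4.85%, 4.28% and 2.79% in wild types on chow. On high fat it was 7.12%, 8.72% and 8.01% in knockout males, against 1.27%, 1.18%, 2.00% and 2.12% in wild type males. The genotypes were apart in males on high fat, and in males on chow knockout 1 lay below all 4 wild types. In females on chow it was 8.22%, 5.36%, 6.89% and 7.06% in knockouts, against 3.71%, 1.99%, 2.16% and 2.03% in wild types. In females on high fat it was 5.97%, 9.77% and 8.21% in knockouts, against 1.97%, 8.61%, 4.44% and 4.14% in wild types. Here wild type 2 lay within the knockout range.

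**Figure D2:**
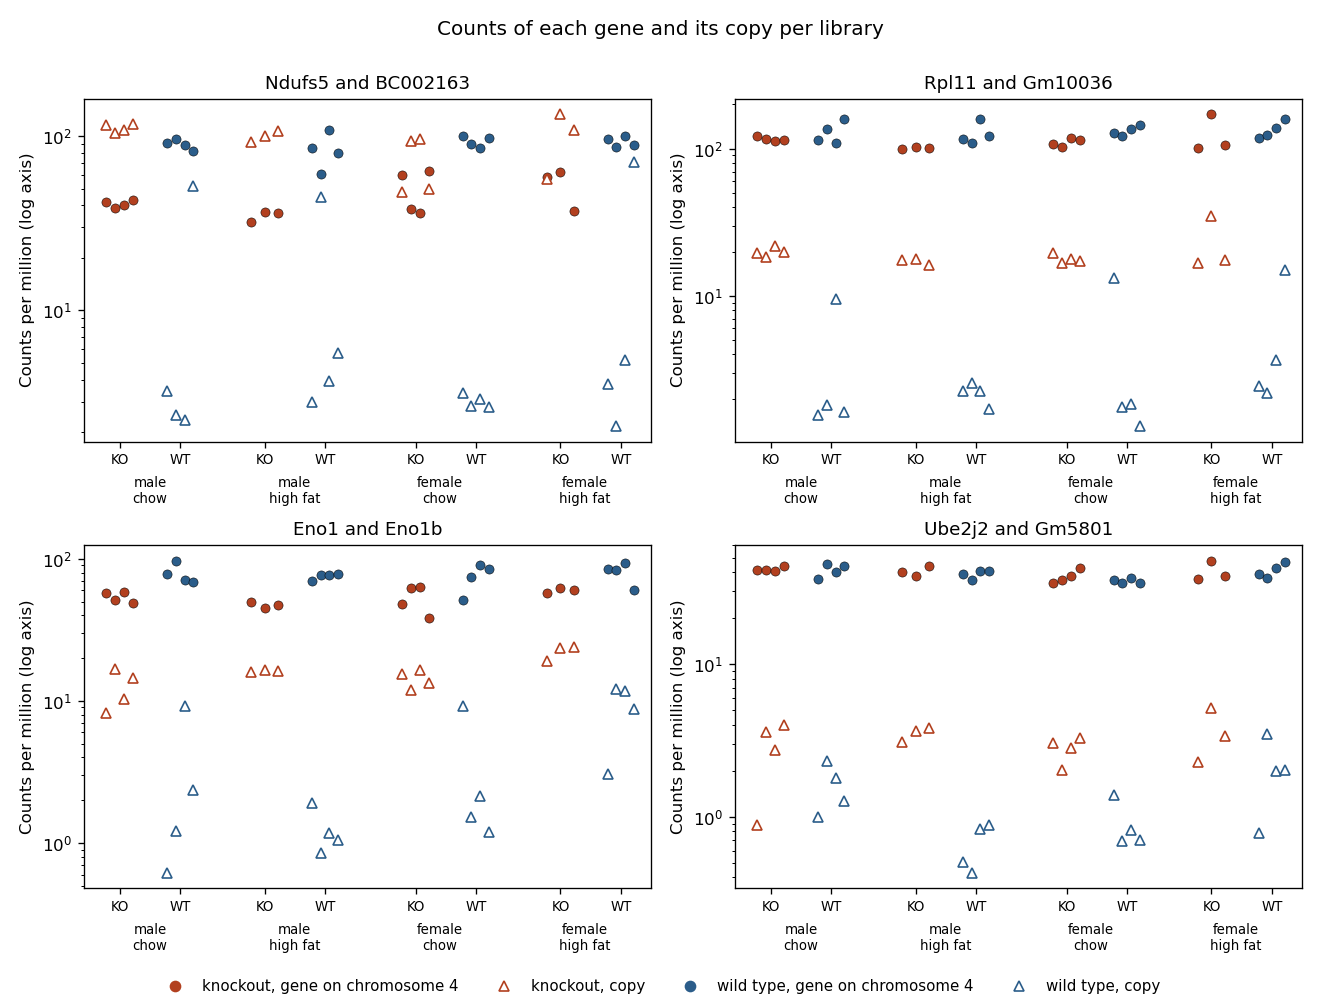
CPM on a log axis for each gene (filled circles) and its copy (open triangles), 1 symbol per library, knockouts left of wild types in each stratum of sex and diet. In knockout males BC002163 triangles lie above Ndufs5 circles, and in all wild types of the other 3 pairs the copy lies far below the gene.

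**Figure D3:**
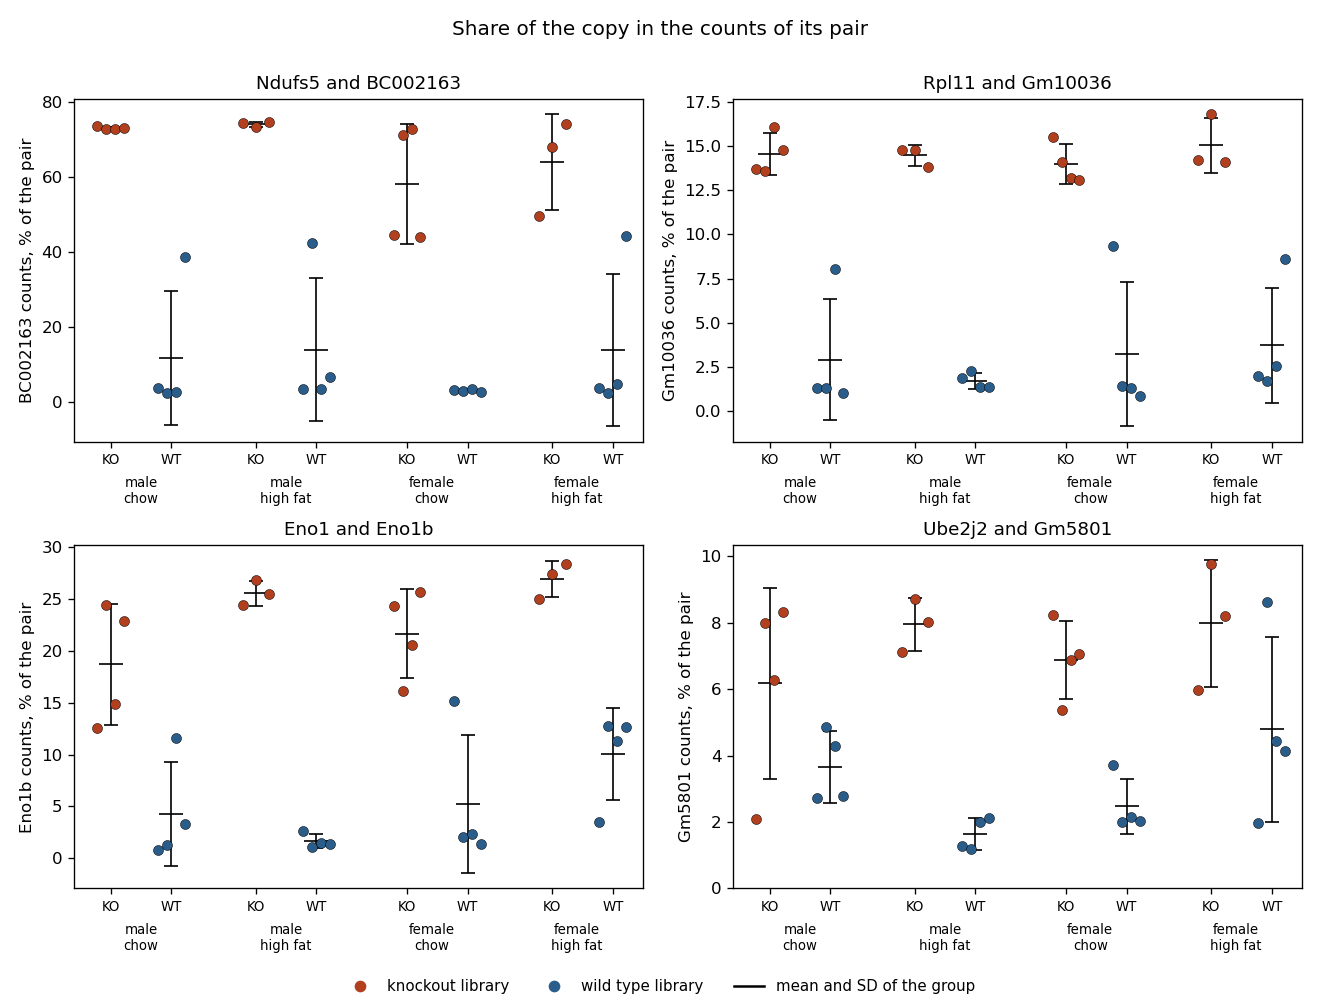
Share of the copy in the counts of its pair, in percent, with 1 point per library and lines for the mean and SD of each group (n = 3 or 4, so an SD line may pass below 0). Gm10036 shares are 13.1% to 16.8% in knockouts and 0.890% to 9.37% in wild types.

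**Figure D4:**
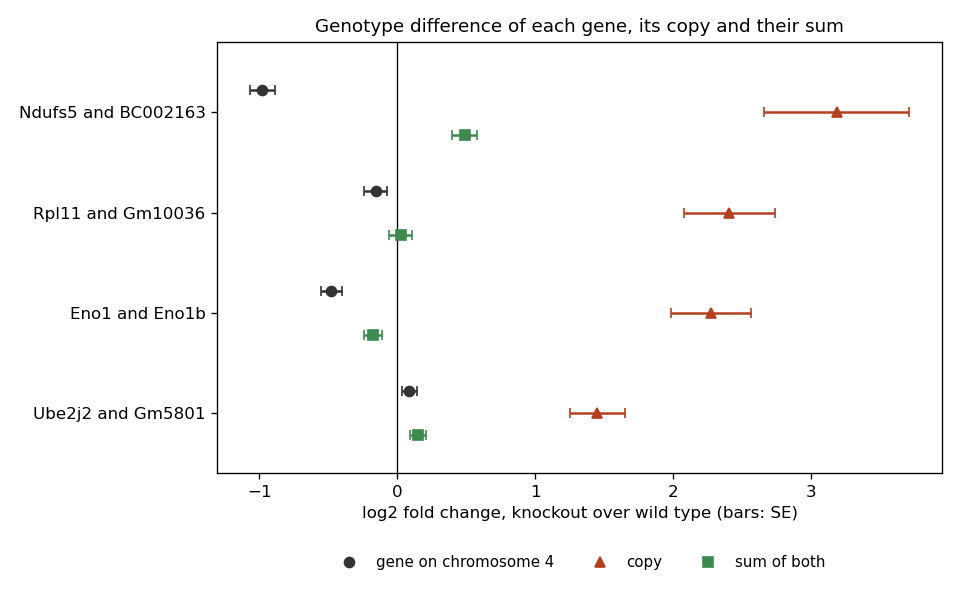
Log2 fold change of knockouts over wild types, averaged over sex and diet, with SE, for each gene, its copy and their sum. The copies lie between 1.45 and 3.19, the genes between -0.98 and 0.09, and the sums between -0.17 and 0.49.

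Genes and copies were then read against all genes of the same fit. At an adjusted p of 0.05 (edgeR, Benjamini-Hochberg), 615 of 14024 genes tested, 4.39%, were called in the average genotype contrast, 1.55% higher and 2.83% lower in knockouts. Of the members, the 4 copies were called higher, Ndufs5 and Eno1 lower, and Rpl11 and Ube2j2 were not called. The members were chosen by the genotype difference, so nothing follows from these counts or from those by sex and diet below, which are a description and no test. In males on chow, where 6.95% of all genes were called (1.63% higher and 5.31% lower), 2 copies (Gm10036 and Eno1b) were called higher and Ndufs5 lower. In males on high fat the background was 0.264% (0.107% higher and 0.157% lower), and Gm5801 and Eno1b were called higher and Ndufs5 lower. In females the background was 0.0927% on chow (0.0214% higher and 0.0713% lower), where Ndufs5 was called lower, and 0.0713% on high fat, where none of the 8 was called. The log2 fold change of BC002163 was 2.33 ± 1.01 in females on high fat, 4.52 ± 1.16 in females on chow, 2.91 ± 1.04 in males on high fat and 2.99 ± 0.98 in males on chow. That of Ndufs5 was -0.77 ± 0.18 in females on high fat, -0.95 ± 0.17 in females on chow, -1.23 ± 0.19 in males on high fat and -0.95 ± 0.17 in males on chow. Ndufs5 was thus lower and BC002163 higher in each of the 4 strata.

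The shares of 3 copies fell into separate ranges over the 31 libraries. Ranges were set at the widest gaps between sorted values, without use of genotype. For BC002163 the high range, 68.1% to 76.6%, held 11 knockouts and the library in no group. The middle range, 38.6% to 49.6%, held 3 knockouts and 3 wild types, and the low range, 2.46% to 6.66%, held 13 wild types. The gaps between them were 32.0 and 18.5 percentage points, and the next widest gap was 5.00. For Gm10036 the high range, 13.1% to 16.8%, held the 14 knockouts, the middle range, 7.79% to 9.37%, 3 wild types and the library in no group, and the low range, 0.890% to 2.59%, 13 wild types. For Eno1b the high range, 20.6% to 28.4%, held 11 knockouts, and the low range, 0.783% to 3.49%, held 11 wild types. The middle range of Eno1b, 11.3% to 16.1%, held 3 knockouts, 5 wild types and the library in no group. Gm5801 showed no such gaps, with a widest gap of 1.04 percentage points.

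Trim63 fell into 3 ranges as well, at 0.469 to 6.24, 107.1 to 130.1 and 183.3 to 253.6 CPM. The Gm10036 range was high where Trim63 was low, middle where it was middle and low where it was high in 31 of 31 libraries. Of these, the 14 libraries of low Trim63 are the knockouts, and the copies were chosen by their genotype difference. The match in those 14 was therefore largely fixed in advance. The other libraries are 4 of middle and 13 of high Trim63. The same held in 26 of 31 libraries for Eno1b and in 23 of 31 for BC002163, and in 18 of 31 all 3 shares matched Trim63. In the other 13 libraries the shares were mixed. Female knockouts chow 1, chow 4 and high fat 1 had middle BC002163 and high Gm10036 and Eno1b. Male knockouts chow 1 and 3 and female knockout chow 2 had high BC002163 and Gm10036 and middle Eno1b. Among wild types, male chow 4 and male high fat 2 had middle BC002163 beside low Gm10036 and Eno1b. Female wild types high fat 2 and 3 had middle Eno1b beside low BC002163 and Gm10036. Wild types male chow 3 and female chow 1 were middle in Gm10036 and Eno1b and low in BC002163. The library in no group had high BC002163 (76.6%, 95% Wilson interval 74.2% to 78.9%) and middle Gm10036 and Eno1b. These counts describe the libraries and were not tested.

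**Figure D5:**
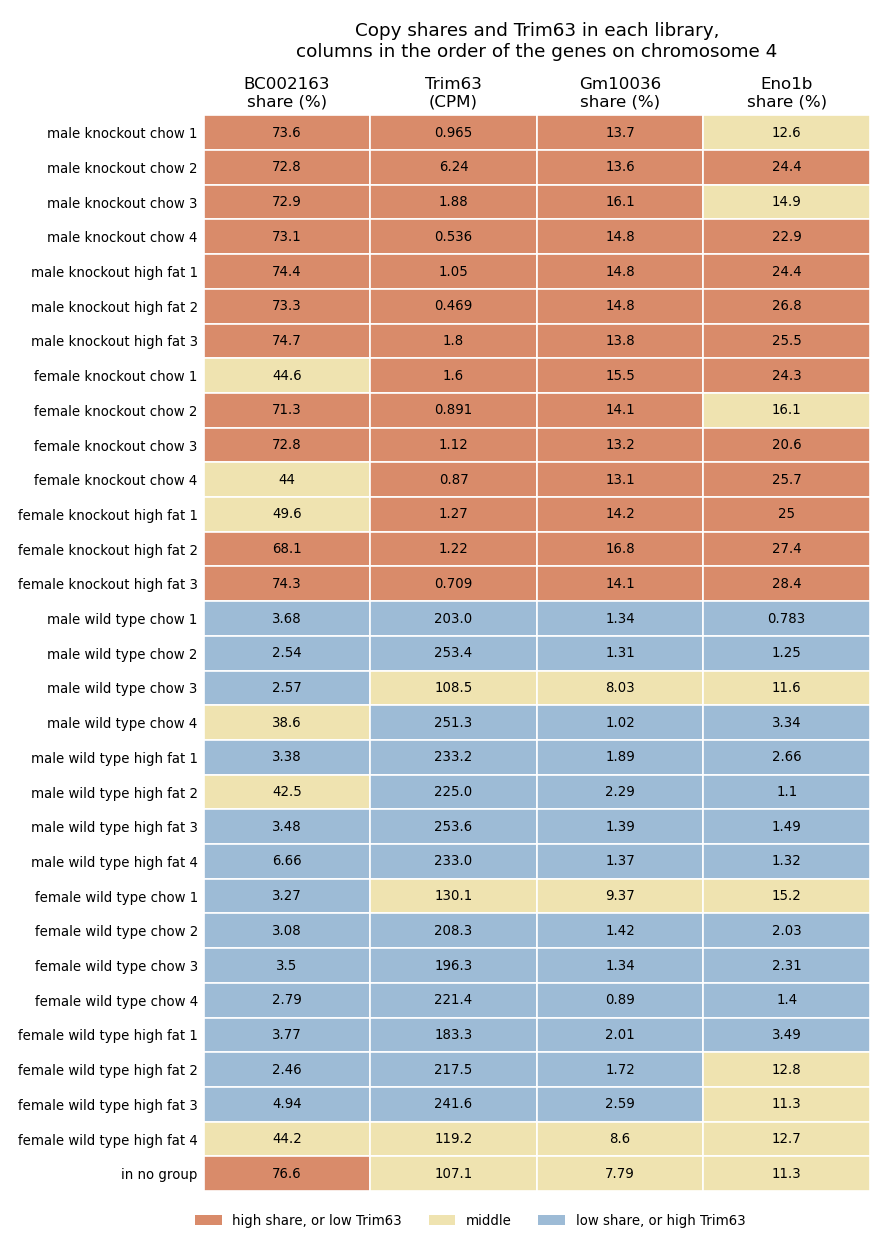
Rows are the 31 libraries, knockouts above wild types, and columns are the copy shares in percent and Trim63 in CPM, in the order of Ndufs5, Trim63, Rpl11 and Eno1 along chromosome 4. Colours give the range of each value, reversed for Trim63: the Trim63 and Gm10036 columns have the same colour in all 31 rows, and the outer columns change colour in 13 rows.

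Diet and sex were not used to list the members and could be tested. For diet, high fat minus chow averaged over sex and genotype, edgeR called 0 of 8 members and 0 of 4 sums, with 0 at an unadjusted p under 0.05 and 0 by DESeq2, against 0.827% of all genes and 0.728% in the fit with the sums. The fold changes of the members ran from -0.05 to 0.74, the highest being that of BC002163 with an SE of 0.52. For sex, 30.8% of all genes were called (17.4% higher and 13.4% lower in females) and 1 of the 8 members, Ube2j2, which was lower in females (log2 fold change -0.19 ± 0.06, edgeR adjusted p = 0.0104). Among knockouts on high fat it had 40.4 ± 6.18 CPM in females and 40.6 ± 3.01 CPM in males (SD, n = 3 each), and on chow 37.6 ± 3.92 CPM in females and 41.9 ± 1.33 CPM in males (SD, n = 4 each). Among wild types on high fat it had 41.2 ± 4.31 CPM in females and 39.2 ± 2.43 CPM in males, and on chow 35.1 ± 1.47 CPM in females and 41.3 ± 4.15 CPM in males (SD, n = 4 each). Females averaged lower in the chow groups of both genotypes, and a difference between diets was not tested. The sum of Ube2j2 and Gm5801 was also lower in females (-0.18 ± 0.06, edgeR adjusted p = 0.0165, with 31.1% of all features called in that fit).

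Eno1b was 0.78 ± 0.30 higher in females and did not pass the threshold (edgeR adjusted p = 0.0509). Over all alternatives its adjusted p ran from 0.0024 to 0.182. Without the 3 wild type libraries of intermediate Trim63, Eno1b (0.79, edgeR adjusted p = 0.00387), BC002163 (-1.46, adjusted p = 0.0179) and the Ndufs5 sum (-0.23, adjusted p = 0.0262) passed it. With all 30 libraries BC002163 was -0.72 ± 0.52 (edgeR adjusted p = 0.317). Its call depended on female wild type high fat 4, without which it was -1.35 (adjusted p = 0.024). The genotype difference itself did not pass a test of interaction with diet or sex for any member or sum. EdgeR called 0 of 8 members and 0 of 4 sums for both interactions, with 0 at an unadjusted p under 0.05 and 0 by DESeq2. The interaction of Eno1b with sex lay at that limit (-1.23 ± 0.60, edgeR unadjusted p = 0.0501, adjusted 0.491). The background was 0.107% for the interaction with diet (0.107% in the fit with the sums) and 0.0285% for that with sex (0.0357% with the sums), and the lowest adjusted p of a member was 0.81 and 0.491.

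The copy shares were compared within each genotype by exact permutation tests, two-sided, 16 in all. After Benjamini-Hochberg adjustment 0 passed 0.05, and 3 had an unadjusted p under 0.05. Among knockouts the Eno1b share was 26.2% ± 1.52 on high fat and 20.2% ± 5.01 on chow (SD, n = 6 and 8, exact permutation p = 0.00599, adjusted 0.0793). Also among knockouts, the BC002163 share was 60.7% ± 13.9 in females and 73.6% ± 0.742 in males (SD, n = 7 each, exact permutation p = 0.00991, adjusted 0.0793). The spread of the females comes from the 3 libraries at 44.0% to 49.6%. Among wild types the Eno1b share was 7.65% ± 5.84 in females and 2.94% ± 3.60 in males (SD, n = 8 each, exact permutation p = 0.0485, adjusted 0.259). The Gm10036 share was 14.4% ± 1.32 in knockout females and 14.5% ± 0.884 in knockout males (SD, n = 7 each, exact permutation p = 0.84, adjusted 0.96).

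Other pairs of this kind were sought among all genes tested, as transcripts at least 97% identical over 80% of the shorter one and at least 200 bases. With a chromosome 4 member within 25 Mb of Trim63 there were 36 pairs, the listed ones included. Of these, 9 had a called member in the genotype contrast and 3 had members called in opposite directions, namely Eno1 with Eno1b, Eno1 with Gm4735 and Ndufs5 with BC002163. All 4 listed pairs are among the 9. Of the opposite calls only Eno1 with Gm4735 is not a listed pair, and it shares Eno1 with one. The listed pairs were chosen by this contrast, so the counts here and in the classes below are a description and no test. Among 90 pairs with a member elsewhere on chromosome 4, 4 had a call and 0 opposite calls. All 4 hold the same chromosome 4 gene, Gm12537, which was not called itself, and the calls were those of its partners on other chromosomes. Among 998 pairs without a member on chromosome 4, 128 had a call and 0 opposite calls. Most of these 128 hold a called transcript that is near-identical to Gapdh, so few genes stand behind them. Eno1b with Gm4735 and Gm10036 with Gm10288, which hold listed copies, are also among the 128. The histone deacetylase gene Hdac1, 4.80 Mb from Trim63, was nearest to the listed pattern: it differed by -0.99 ± 0.07 and its copy Gm10093 on chromosome 17 by 0.53 ± 0.18. Hmgn2, a nucleosome-binding protein gene 0.350 Mb from Trim63, differed by -0.95 ± 0.07 and its copy Gm10282 by -0.54 ± 0.20, so gene and copy had the same sign. Hdac1 and Hmgn2 were called, but neither Gm10093 nor Gm10282 was. Pairs share genes and reads with each other and are not independent.

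Genes that work with Ndufs5, Rpl11 and Eno1 were read in the same genotype contrast. Of 35 other complex I subunit genes, edgeR called 0, with 0 at an unadjusted p under 0.05 and 0 by DESeq2, and their log2 fold changes ran from -0.04 to 0.10 (median 0.02). Ndufb4 (0.09 ± 0.06) had the smallest p. Of 44 other large ribosomal subunit genes tested 0 were called, with 1 at an unadjusted p under 0.05, Rpl3 (-0.16 ± 0.06), and 0 by DESeq2, and the median was 0.08. Of 17 other glycolytic genes, the hexokinase genes Hk2 (0.19 ± 0.05) rose and Hk1 (-0.39 ± 0.10) fell, and the median was -0.09. In that list 5 genes had an unadjusted p under 0.05, and DESeq2 called 1 higher and 1 lower. The median of all 14024 genes was -0.01, and 4.39% of them were called.

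Genes whose level followed a copy share were ranked by Spearman's rho of log2 CPM over the 30 grouped libraries, which share genotype, sex, diet and library depth. The Eno1b share went most with the zinc finger genes Zfp992 (rho = 0.867) and Zfp993 (0.849) and, inversely, with Pik3cd (-0.851), a phosphoinositide 3-kinase gene. The BC002163 share went most with Mob3c (-0.841), Gm10036 (0.797) and Ppt1 (0.794), which encodes a lysosomal thioesterase. The Gm10036 share went most with the small GTPase gene Rab6b (-0.855), Hdac1 (-0.844) and Pafah2 (-0.838). The Gm5801 share went most with the retinol-binding protein gene Rbp7 (0.854), Eno1b (0.847) and Pik3cd (-0.802). Apart from Rab6b on chromosome 9 and the copies Gm10036 and Eno1b, all of these lie on chromosome 4. The copies were chosen by their genotype difference, so any gene that differs by genotype can rank high here. The part of all genes tested that lies on chromosome 4 is not given, and the ranking is a description and no test.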

How the data were processed

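The samples were 31 gastrocnemius libraries, made per the labels' protocols from polyA RNA with a stranded kit and sequenced with 150-base paired reads. The authors deposited raw read counts for 39017 genes per library. The tools bcl2fastq and featureCounts and the build mm10 are named per the submitters' processing notes. Not given in the sources used here are the aligner, the strand setting and the handling of reads that match several places. Libraries were grouped by the animal number in the description, which is also that of the file, and replicate numbers only name libraries. Each library was taken as 1 animal, because the described numbers differ. Of 42 pairs of libraries of 1 group 0 were identical. Symbols, coordinates and transcripts came from GENCODE M21, on the same build. The members, pairs and gene lists were chosen with earlier results of these data known. The result of 1 further list is not reported here. Named genes are the members, Trim63, Eno2, Eno3, up to 3 genes of smallest p of each list, the 3 genes of highest absolute Spearman correlation with each copy share, and near-identical pairs called in opposite directions. Acta1, Krt5, Krt10, Gm10288, Gm12537, Gapdh, Hdac1, Hmgn2 and the copies of the last 2 lie outside this rule and were chosen after their values were seen.

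Counts were fitted with edgeR 4.0.16 in R 4.3.3 (TMM scaling, filterByExpr with a minimum count of 10, robust quasi-likelihood test, 8 group coefficients, 30 libraries), with Benjamini-Hochberg adjustment over all 14024 genes. A second fit replaced the 8 members by the 4 sums. Each SE was the absolute fold change over the square root of F. CPM are counts divided by the library total, so a count of 3 is 0.201 to 0.321 CPM. The common dispersion over all genes gave a biological coefficient of variation between replicates of 14.2%. Some members varied far more, such as BC002163 in wild type females on high fat (20.4 ± 33.5 CPM, SD, n = 4). Only the edgeR genotype contrast was run on simulated data, with the same dispersion for all genes. Sums, shares, permutation tests, interactions and the search for pairs were not. Near-identical transcripts were found with blastn 2.17.0. Alternatives were DESeq2 1.42.0, RLE scaling, other count filters, other groupings, a replicate block and leaving out libraries. Reads carry no molecule counts, so Wilson intervals and floors hold for counting error alone. In bulk muscle, fewer cells of a type and less RNA per cell cannot be told apart.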

Additional observations from a re-analysis of the deposited data

Results flagged for a closer look

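In groups of 4 libraries, 1 library stood apart from the other 3 by more than Dixon's 95% limit in 18 of 102 sets searched. Chance gives about 1 in 20 for independent sets of normally distributed values. The sets searched share libraries and counts, so the 18 are a description and no test. Most of the libraries that stood apart are wild types with more copy counts than the rest of their group. Wild types male chow 4, male high fat 2 and female high fat 4 stood apart in BC002163, with 52.0, 45.0 and 70.6 CPM and shares of 38.6%, 42.5% and 44.2%. Wild types male chow 3, female chow 1 and female high fat 4 stood apart in Gm10036, with 9.58, 13.3 and 14.9 CPM and shares of 8.03%, 9.37% and 8.60%, and these are the libraries of intermediate Trim63. Female wild type chow 1 also stood apart in Eno1b (9.17 CPM and a share of 15.2%) and in the Gm5801 share (3.71%). Female wild type high fat 1 had the lowest Eno1b share of its group (3.49%). Male wild type high fat 1 had the lowest Eno1 of its group (70.3 CPM), and male knockout chow 1 the highest sum of Rpl11 and Gm10036 (141.7 CPM). The library in no group, which enters none of the group comparisons except 2 alternatives, had the highest BC002163 share of all 31 (76.6%), above every wild type library. The cause of these values was not tested.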

How the results depend on the processing

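No genotype fold change of a member or sum changed sign where it was called, and the copies were higher under each alternative run. Grouping all 31 libraries by title lowered the share difference to 12 percentage points for Eno1b (from 17.9) and 8.85 for Gm10036 (from 11.6), and left 3 members called instead of 6. Without the 3 wild type libraries of intermediate Trim63 (50 to 150 CPM), 5 members and sums were called for sex instead of 2, and Gm10036 had a genotype log2 fold change of 3.33 instead of 2.41. Leaving out 1 library moved the sex values of Ube2j2 between -0.24 and -0.17 and of its sum between -0.23 and -0.16, all past the threshold. Share differences then ran from 55.4 to 59.2 percentage points for BC002163, 17.4 to 18.8 for Eno1b, 11.4 to 12.1 for Gm10036 and 3.87 to 4.45 for Gm5801. The uncalled Rpl11 sum ran from -0.05 to 0.07. DESeq2 gave no adjusted p for Gm10036, and a minimum count of 50 removed Gm5801, so each called 5 members.

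Replicate numbers were not taken as pairs. Deviations of libraries with the same number had a median correlation of 0.0265 (99 pairs, -0.318 to 0.457), and those with other numbers -0.00636. A median near 0 does not exclude that some libraries are paired. With the replicate block the log2 fold changes were 3.80 for BC002163 and 0.52 for the Ndufs5 sum, and 6 members were called, as without it. For genotype 997 genes were called with the block and 615 without it.

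Counts of all genes moved more. For genotype, 615 genes were called, against 128 by title, 953 without the 3 libraries and 390 to 1203 with 1 library left out (390 without male knockout high fat 2, 924 without male wild type chow 4, 1020 without male knockout chow 4 and 1203 without female wild type high fat 4). For diet, 116 became 350 by DESeq2, 35 without a filter, 0 by title, 30 with agreeing labels only, 215 with the library in no group, and 23 to 257 with 1 left out. For genotype by diet, 15 became 50, 6, 0 and 4 under the first 4 of these and 1 to 45 with 1 left out. For genotype by sex, 4 became 101 by DESeq2, 0 with a minimum count of 50, 0 by title, 12 with the block and 2 to 217 with 1 left out. The cause was not tested. Depth limits Gm5801 most, with counts as low as 4.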

Other observations

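The levels behind the split of the knockout females are given here as a description, since the BC002163 share is itself computed from Ndufs5. The 3 libraries with a middle BC002163 share (chow 1, chow 4 and high fat 1) had 59.5, 63.4 and 58.0 CPM of Ndufs5 and 48.0, 49.8 and 57.1 CPM of BC002163. Those with a high share (chow 2, chow 3, high fat 2 and high fat 3) had 38.0, 36.0, 62.5 and 37.3 CPM of Ndufs5 and 94.2, 96.5, 133.6 and 108.0 CPM of BC002163. Female knockout high fat 2 was high in both, and it also had the most Rpl11 (171.9 CPM), Gm10036 (34.7 CPM) and Eno3 (9425.6 CPM) of the knockouts.

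The share of Gm4735 in the summed counts of Eno1 and Gm4735 was 3.86% to 7.36% (median 6.09%) in knockouts and 0.857% to 4.44% (median 1.64%) in wild types, with 1 library of each genotype in the other's range. Among wild type females it was 2.86% to 3.62% on high fat and 0.926% to 4.44% on chow. Female wild type chow 1, at 4.44%, was also the wild type library with the highest shares of Gm10036 and Eno1b. These values were not tested.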
